A study of Mus musculus with 24 samples.

Results

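The collagen genes of the mouse heart were followed over a single day. They were taken as all genes whose symbol is Col, a number, a and a number, and the arrays held 44 of them among 22180 genes. Of these, 11 code for chains of fibrillar collagens, 6 for chains of type IV, the network collagen of basement membranes, and 27 for other collagens. The hearts came from wild-type C57Bl/6 mice, all males of 8 weeks, under 12 h of light and 12 h of dark a day, and the labels name no deleted gene and no agent in any group. Hearts, labelled as myocardium, were collected every 4 h, with ZT03, ZT07 and ZT11 falling in the light and the later ZT15, ZT19 and ZT23 in the dark, where ZT (zeitgeber time) is the number of hours after lights-on. Each of the 6 times had 4 Affymetrix arrays that the labels call biological replicates, which gives 24 arrays in all. The comparisons address which transcripts of the heart change with the time of day.

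Collagens are the main structural proteins of the extracellular matrix. Their alpha chains wind around each other into a helix in the endoplasmic reticulum, are secreted, and assemble outside the cell. Types I and III form the thick fibrils between heart muscle cells and are made mostly by fibroblasts, type V starts and limits the width of these fibrils, and type IV forms the sheet under endothelial cells and around each muscle cell. Beaded filaments of type VI and the multiplexins XV and XVIII, which carry sugar chains, link fibrils and basement membranes to the cells. Collagen protein lasts much longer than its RNA, so a change of transcript within a day does not give the change of protein.

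The deposited values are log2 differences from each probe set's own median over the 24 arrays, with base 2 assumed. They hold no level, so genes could not be ranked by abundance, and neither the presence of a cell type nor the signal over background could be read from them. Arrays differed in their SD over all probe sets (0.103 to 0.171), which was largest on ZT15 replicate 1, ZT23 replicate 4 and ZT07 replicate 4. No label or value names a batch. In whole heart RNA, fewer cells of a type and less RNA per cell cannot be told apart.

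A 24-h rhythm, tested in limma with a cosine and a sine term, was called where the p-value adjusted over all 22180 genes (Benjamini-Hochberg) was below 0.05. It was called in 9 of the 44 collagen genes, 20.5%, beside 7.61% of all genes. All 9 peaked in the light, between ZT 3.00 and ZT 6.76, while over all genes 3.83% were called with a peak in the light and 3.78% with a peak in the dark. The 9 genes were Col1a1, Col3a1, Col5a2 and Col5a3 of the fibrillar class (4 of 11), Col4a1 and Col4a2 of the basement membrane class (2 of 6), and Col6a2, Col6a3 and Col15a1 of the others (3 of 27). At an unadjusted p below 0.05 there were 13 collagen genes, all 13 with a peak in the light, beside 19.5% of all genes. A window from ZT 3 to ZT 9, chosen after the peak times had been seen, was counted too, and 1.97% of all genes were called with a peak in it. Without the 3 arrays of largest SD 10 collagen genes were called, the same 9 and Col6a1.

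**Figure D1:**
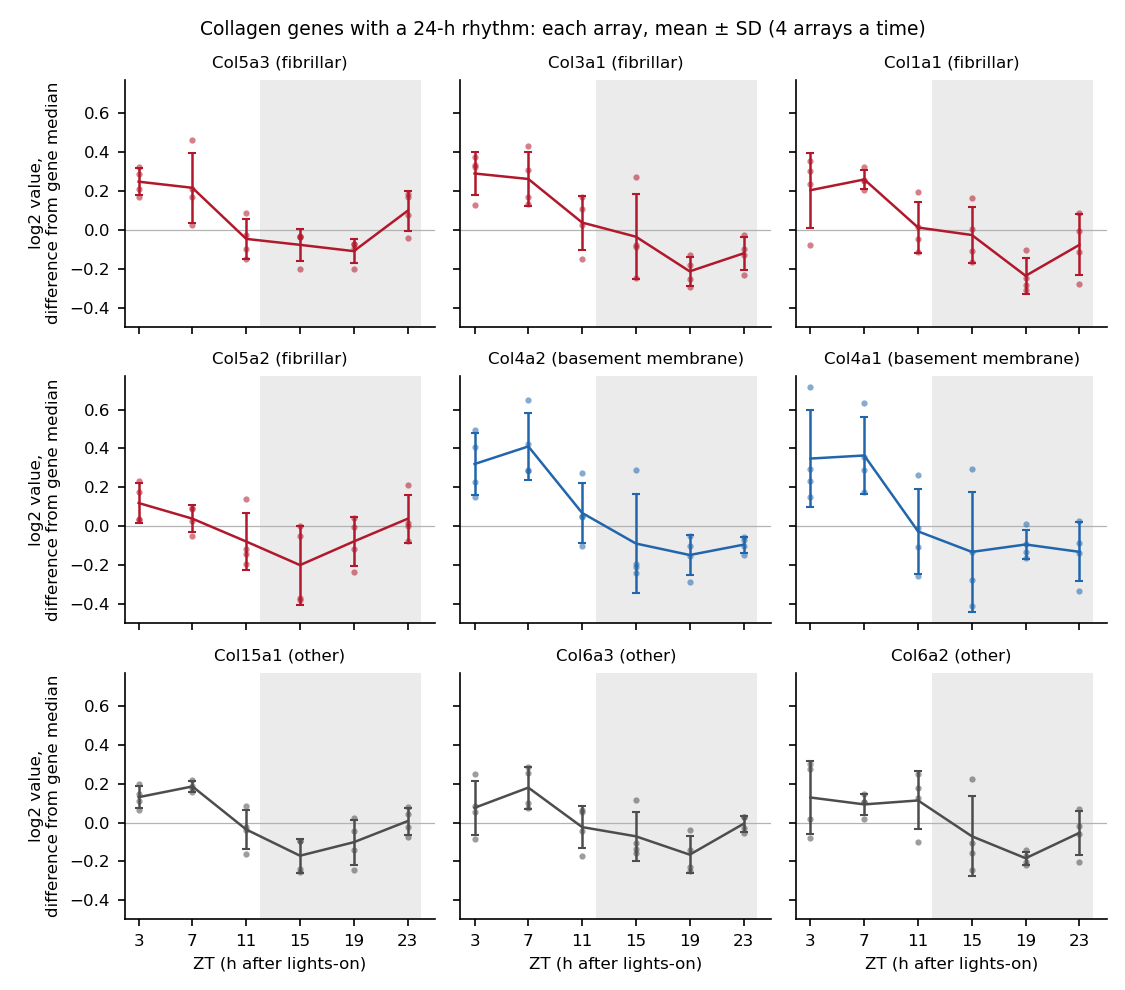
Log2 difference from the gene's own median (vertical axis) on each of the 24 arrays (points), by time of day (horizontal axis, ZT in hours, dark phase shaded), for the 9 collagen genes with a called 24-h rhythm, with a line through the mean ± SD of the 4 arrays at each time. The time means are highest at ZT03 or ZT07 and below 0 at ZT15 and ZT19 in all 9 genes.

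Among the fibrillar genes, Col1a1, which codes for the alpha 1 chain of type I collagen, was high in the first part of the light phase and low in the middle of the dark. Its log2 differences from its median were -0.076, 0.23, 0.30 and 0.35 on the ZT03 arrays, 0.32, 0.25, 0.20 and 0.26 on the ZT07 arrays and -0.046, 0.015, -0.11 and 0.19 on the ZT11 arrays. In the dark it ran 0.16, -0.16, 0.0031 and -0.11 on those of ZT15, -0.10, -0.28, -0.25 and -0.31 on those of ZT19 and -0.28, -0.12, 0.089 and -0.0031 on those of ZT23. All 4 ZT07 arrays lay above all 4 ZT19 arrays, and at ZT03 replicate 1 stood below the other 3. The fitted amplitude (peak minus mean) was 0.22 ± 0.039 (SE, log2), the peak time ZT 6.29 ± 0.66 h and the peak-to-trough ratio 1.36-fold (limma, adjusted p = 0.00151).

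Col3a1, the only chain of type III collagen, was also high at ZT03 and ZT07. The values were 0.13, 0.34, 0.38 and 0.32 on the ZT03 arrays, 0.31, 0.17, 0.14 and 0.43 on the ZT07 arrays and -0.15, 0.17, 0.028 and 0.11 on the ZT11 arrays. The dark times gave 0.27, -0.25, -0.087 and -0.075 on those of ZT15, -0.25, -0.29, -0.13 and -0.18 on those of ZT19 and -0.23, -0.028, -0.098 and -0.13 on those of ZT23. Outside ZT15 every dark array lay below every array of ZT03 and ZT07. On ZT15 replicate 1 Col3a1 lay within the range of ZT03 and ZT07, and the same array was also the highest ZT15 array for Col1a1, Col4a1, Col4a2, Col6a2 and Col6a3. The amplitude of Col3a1 was 0.24 ± 0.04, with a peak at ZT 6.24 ± 0.63 h and a ratio of 1.4-fold (adjusted p = 8.08e-04).

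Col1a2, which codes for the alpha 2 chain that joins the alpha 1 chains in the common type I molecule, had no called rhythm. Its values were 0.0015, -0.035, 0.075 and 0.036 on the ZT03 arrays, 0.12, -0.084, -0.014 and -0.013 on the ZT07 arrays and -0.063, -0.082, -0.046 and 0.011 on the ZT11 arrays. In the dark it ran 0.17, -0.0023, 0.12 and 0.077 on those of ZT15, 0.12, -0.051, -0.013 and -0.13 on those of ZT19 and -0.12, 0.084, -0.014 and 0.094 on those of ZT23. The arrays of any time overlapped with those of every other. The amplitude was 0.015 ± 0.024 (adjusted p = 0.937), and ZT19 minus ZT07 was -0.022 ± 0.055. Col1a2 is the mean of 2 probe sets whose values correlated at r = -0.086 over the 24 arrays. Taken singly, their amplitudes were 0.0096 (adjusted p = 0.989) and 0.023 (adjusted p = 0.934).

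Of the type V genes, Col5a3 stood high at ZT03 and ZT07. Its values were 0.21, 0.17, 0.29 and 0.32 on the ZT03 arrays, 0.17, 0.21, 0.46 and 0.025 on the ZT07 arrays and 0.089, -0.025, -0.15 and -0.10 on the ZT11 arrays. At night it stood at -0.036, -0.037, -0.20 and -0.034 on those of ZT15, -0.07, -0.071, -0.095 and -0.20 on those of ZT19 and 0.079, -0.04, 0.17 and 0.19 on those of ZT23. No array of ZT15 or ZT19 reached the lowest array of ZT03 or ZT07. The amplitude was 0.19 ± 0.03, the peak at ZT 4.04 ± 0.59 h and the ratio 1.31-fold (adjusted p = 3.58e-04). Col5a2 was called with a smaller margin, with values of 0.032, 0.18, 0.23 and 0.036 on the ZT03 arrays, 0.092, 0.091, 0.025 and -0.052 on the ZT07 arrays and -0.12, -0.20, 0.14 and -0.14 on the ZT11 arrays. At night it stood at -0.05, -0.38, 0.001 and -0.37 on those of ZT15, -0.24, 0.042, -0.0017 and -0.12 on those of ZT19 and 0.21, -0.001, -0.076 and 0.016 on those of ZT23. Its low values at ZT15 came from replicates 2 and 4, and the groups of ZT07 and ZT19 overlapped. The amplitude was 0.15 ± 0.035, with the earliest peak of the 9 genes at ZT 3 ± 0.92 h (adjusted p = 0.0256), and the call was lost without ZT03 replicate 2 or 3 or without ZT15 replicate 2 or 4 (adjusted p up to 0.067). Col5a1, the chain found in most type V molecules, had an amplitude of 0.052 ± 0.017 (adjusted p = 0.16). Its 2 probe sets correlated at r = 0.062 and gave adjusted p = 0.0884 and 0.873. The other 5 fibrillar genes, Col2a1, Col11a1, Col11a2, Col24a1 and Col27a1, of which the first 3 are known from cartilage, had amplitudes from 0.0051 to 0.048 and adjusted p from 0.71 to 0.99.

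The sequences before the start sites of a pair of fibrillar genes with a rhythm and of Col1a2 are shown for comparison. Each is the 250 bases before the RefSeq start in build GRCm38.p6, 5′ to 3′ on the gene's strand, with capitals for the motifs found among 6 searched on both strands (CACGTG for the E-box, TTATGNAA for the D-box, AGGTCA for nuclear receptors, CCAAT for the factor of the same name, GGGCGG for the GC box, and TATAAA for the TATA box). Col1a1 and Col5a2 had no such window here.
Col3a1, chr1:45311288-45311537, plus strand: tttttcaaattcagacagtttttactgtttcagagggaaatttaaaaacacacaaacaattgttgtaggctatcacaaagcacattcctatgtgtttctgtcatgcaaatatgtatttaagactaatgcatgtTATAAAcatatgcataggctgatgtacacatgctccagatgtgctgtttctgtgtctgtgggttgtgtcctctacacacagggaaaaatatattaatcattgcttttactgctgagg
Col5a3, chr9:20815068-20815317, minus strand: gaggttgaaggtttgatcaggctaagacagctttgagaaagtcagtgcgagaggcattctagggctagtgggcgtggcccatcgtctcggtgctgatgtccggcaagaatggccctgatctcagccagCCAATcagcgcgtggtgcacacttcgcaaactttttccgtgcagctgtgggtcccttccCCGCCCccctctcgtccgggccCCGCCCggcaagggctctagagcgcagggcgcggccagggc
Col1a2, chr6:4505368-4505617, plus strand: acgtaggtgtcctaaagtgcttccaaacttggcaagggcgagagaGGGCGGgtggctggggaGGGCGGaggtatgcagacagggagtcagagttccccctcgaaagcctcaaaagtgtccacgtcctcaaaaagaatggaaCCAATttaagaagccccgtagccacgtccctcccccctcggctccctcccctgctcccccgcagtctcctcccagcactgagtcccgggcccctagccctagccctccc
The Col3a1 sequence held TATAAA at -117. That of Col5a3 held CCAAT at -122 and the GC box, here as CCGCCC, at -63 and -41. The Col1a2 sequence held the GC box at -205 and -188 and CCAAT at -109, where positions are those of the first base of the match, counted back from the start site. Windows of 300 bases (250 before to 50 after the start) were at hand for 35 of the 44 collagen genes, 7 of them with a rhythm. CACGTG was in 0 of the 35, beside 8.09% of the 27025 genes with a window. TTATGNAA was in 2 of 35 (3.99% of all genes) and AGGTCA in 8 of 35 (18.1% of all genes), and none of these 3 motifs was in the 7 called genes. The GC box was in 22 of 35 (38.2% of all genes) and in 4 of the 7. CCAAT was in 13 of 35 (41.1% of all genes) and in 3 of the 7, and TATAAA in 5 of 35 (15.7% of all genes) and in 1 of the 7. A match describes these letters only, and a missing match says nothing of a factor.

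In the basement membrane class, Col4a1 and Col4a2 had the largest amplitudes of all 44 collagen genes. They code for the chains of the most widespread type IV molecule and lie head to head on chromosome 8. For Col4a2 the values were 0.15, 0.23, 0.49 and 0.41 on the ZT03 arrays, 0.42, 0.28, 0.29 and 0.65 on the ZT07 arrays and -0.10, 0.053, 0.048 and 0.27 on the ZT11 arrays. In the dark it ran 0.29, -0.20, -0.24 and -0.21 on those of ZT15, -0.15, -0.048, -0.10 and -0.29 on those of ZT19 and -0.058, -0.07, -0.10 and -0.15 on those of ZT23. Every array of ZT19 and ZT23 lay below every array of ZT03 and ZT07, and at ZT15 only replicate 1 was above 0. Its amplitude was 0.29 ± 0.045, with a peak at ZT 6.06 ± 0.59 h and a ratio of 1.5-fold (adjusted p = 3.80e-04).

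Col4a1 varied more between arrays of a time. Its values were 0.15, 0.23, 0.71 and 0.29 on the ZT03 arrays, 0.36, 0.18, 0.29 and 0.64 on the ZT07 arrays and -0.25, -0.10, -0.011 and 0.26 on the ZT11 arrays. The dark times gave 0.30, -0.13, -0.41 and -0.28 on those of ZT15, 0.011, -0.16, -0.13 and -0.089 on those of ZT19 and 0.029, -0.14, -0.086 and -0.33 on those of ZT23. ZT03 replicate 3 and ZT07 replicate 4 were the highest arrays and ZT15 replicate 3 the lowest, and ZT07 and ZT19 did not overlap. The amplitude was 0.27 ± 0.06, the peak at ZT 5.44 ± 0.85 h and the ratio 1.46-fold (adjusted p = 0.0144). The other 4 type IV genes, Col4a3 to Col4a6, known from kidney, lung and other specialised membranes, had amplitudes from 0.02 to 0.051 and adjusted p from 0.27 to 0.85.

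Among the other collagens, Col15a1 had the smallest p-value of all 44. It codes for a multiplexin of the basement membrane zone of muscle and capillaries. Its values were 0.11, 0.067, 0.15 and 0.20 on the ZT03 arrays, 0.22, 0.16, 0.19 and 0.18 on the ZT07 arrays and -0.025, -0.16, -0.041 and 0.083 on the ZT11 arrays. At night it stood at -0.094, -0.095, -0.24 and -0.26 on those of ZT15, -0.24, -0.041, 0.021 and -0.14 on those of ZT19 and -0.021, 0.045, -0.076 and 0.08 on those of ZT23. All arrays of ZT03 and ZT07 lay above all arrays of ZT15 and ZT19. The amplitude was 0.17 ± 0.023, the peak at ZT 4.63 ± 0.52 h and the ratio 1.27-fold (adjusted p = 9.62e-05). Col18a1, the other multiplexin and the source of endostatin, ran 0.0031, -0.007, 0.048 and -0.0006 on the ZT03 arrays, 0.096, 0.17, -0.0025 and 0.20 on the ZT07 arrays and 0.0006, -0.11, -0.015 and -0.038 on the ZT11 arrays. At night it stood at 0.28, 0.051, 0.063 and -0.013 on those of ZT15, -0.053, 0.09, -0.03 and -0.02 on those of ZT19 and 0.084, -0.046, -0.013 and 0.21 on those of ZT23. It was highest on ZT15 replicate 1, its groups overlapped, and its amplitude was 0.011 ± 0.028 (adjusted p = 0.974). Counting both multiplexins with the basement membrane class would give 3 of 8 genes called there and 2 of 25 in the others.

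The 6 genes of type VI, the beaded filament collagen around cells, all had their fitted peak in the light, beside 10803 of all 22180 genes. For Col6a3 the values were -0.085, 0.054, 0.25 and 0.083 on the ZT03 arrays, 0.29, 0.26, 0.10 and 0.074 on the ZT07 arrays and -0.045, 0.067, -0.17 and 0.055 on the ZT11 arrays. At night it stood at 0.11, -0.10, -0.16 and -0.14 on those of ZT15, -0.25, -0.041, -0.23 and -0.14 on those of ZT19 and 0.027, 0.029, -0.027 and -0.056 on those of ZT23. Its ZT07 and ZT19 groups did not overlap, and its amplitude was 0.14 ± 0.03 with a peak at ZT 5.73 ± 0.79 h (adjusted p = 0.00809). Col6a2 stood at 0.019, -0.082, 0.30 and 0.28 on the ZT03 arrays, 0.11, 0.019, 0.10 and 0.14 on the ZT07 arrays and -0.098, 0.13, 0.25 and 0.18 on the ZT11 arrays. At night it stood at 0.22, -0.16, -0.10 and -0.25 on those of ZT15, -0.20, -0.14, -0.17 and -0.22 on those of ZT19 and -0.019, -0.058, 0.067 and -0.20 on those of ZT23. Its 4 ZT19 arrays were all at -0.14 or lower, and at ZT03 replicates 3 and 4 were far above the other pair. The amplitude was 0.15 ± 0.037, the peak at ZT 6.76 ± 0.93 h and the adjusted p 0.0282, and the call was lost without ZT19 replicate 1, 3 or 4 (adjusted p up to 0.058). For Col6a1, which every common type VI molecule holds, the amplitude was 0.086 ± 0.029 (adjusted p = 0.175). Its 2 probe sets correlated at r = 0.23 and gave amplitudes of 0.14 (adjusted p = 0.051) and 0.039 (adjusted p = 0.863). Without the 3 arrays of largest SD the mean of both was called (adjusted p = 0.0362). Col6a4, Col6a5 and Col6a6 had amplitudes from 0.042 to 0.048 and adjusted p from 0.36 to 0.54 (limma). The SE of their peak times ran from 1.65 to 2.09 h, so these were loosely placed.

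The remaining genes had no called rhythm. Just outside the threshold stood Col13a1, a membrane-spanning collagen, with an amplitude of 0.098 ± 0.028 and a peak at ZT 2.91 ± 1.07 h (adjusted p = 0.0685), and it passed without ZT23 replicate 2 (adjusted p = 0.0244). Col8a2, a chain of the network collagen VIII of vessel walls, had 0.081 ± 0.027 (adjusted p = 0.161), and Col8a1, the other chain, 0.12 ± 0.048 with a fitted peak at ZT 10.7 ± 1.58 h (adjusted p = 0.319). Col8a1 was 0.21 on ZT19 replicate 1 and -0.35, -0.29 and -0.46 on the other ZT19 arrays. The 9 FACIT collagens, which sit on the surface of fibrils, had amplitudes from 0.0054 to 0.067 and adjusted p from 0.45 to 0.99, with 4 fitted peaks in the light. The median amplitude was 0.048 in the fibrillar class, 0.049 in the basement membrane class and 0.043 in the others, beside 0.040 over all genes, so the typical collagen gene was near the background and the called genes were the upper end of their classes.

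**Figure D2:**
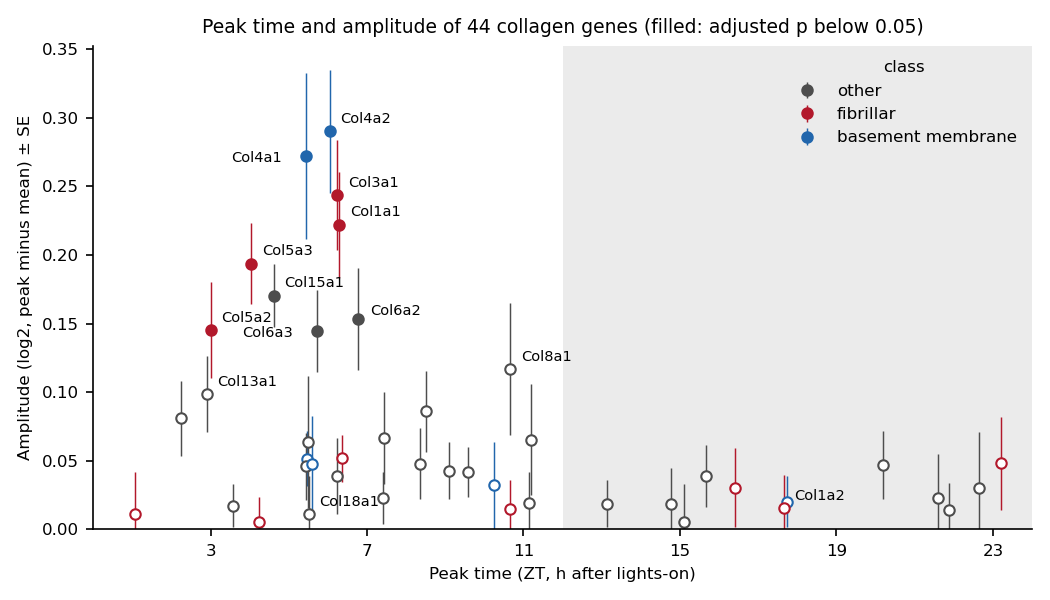
Fitted peak time (horizontal axis, ZT in hours, dark phase shaded) and amplitude ± SE (vertical axis, log2, peak minus mean) of the 44 collagen genes, colored by class, with filled points where the adjusted p was below 0.05. The 9 filled points lie between ZT 3.00 and ZT 6.76 with amplitudes from 0.14 to 0.29, and Col1a2 and Col18a1 lie near 0.

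A test of any difference among the 6 times, which does not assume a cosine, called 6 collagen genes, beside 4.72% of all genes. These were Col15a1, Col5a3, Col4a2, Col3a1, Col1a1 and Col4a1, with adjusted p from 0.00172 to 0.0404, and Col6a3 had adjusted p = 0.0533. Without ZT15 replicate 1 the count was 8.

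The mean of the dark times was set against that of the light times. It was lower in 8 collagen genes and higher in 0 (limma), beside 4.39% of all genes called, 2.49% called lower and 1.89% called higher. At an unadjusted p below 0.05 there were 12 collagen genes, beside 16.4% of all genes. Night minus day was -0.38 ± 0.062 for Col4a2 (adjusted p = 6.83e-04), -0.35 ± 0.081 for Col4a1 (adjusted p = 0.0134) and -0.32 ± 0.052 for Col3a1 (adjusted p = 7.08e-04), each ± SE on the log2 scale. It was -0.27 ± 0.053 for Col1a1, -0.21 ± 0.054 for Col6a2, -0.18 ± 0.033 for Col15a1 and -0.17 ± 0.042 for Col5a3. The eighth was Col6a3 at -0.16 ± 0.042 (adjusted p = 0.0337), a call that was lost in 13 of the 24 fits without 1 array (adjusted p up to 0.0631). Col5a2 had -0.11 ± 0.052 (adjusted p = 0.315).

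The middle of the dark was compared with the middle of the light as ZT19 minus ZT07. It was lower in 6 collagen genes, beside 1.59% of all genes called and 0.703% called lower, and higher in 0, beside 0.888%, while 11 had an unadjusted p below 0.05, beside 13.1% of all genes. The differences were -0.56 ± 0.11 for Col4a2, -0.50 ± 0.091 for Col1a1, -0.47 ± 0.091 for Col3a1 and -0.34 ± 0.073 for Col6a3. They were -0.33 ± 0.073 for Col5a3 and -0.29 ± 0.057 for Col15a1, and adjusted p over the 6 genes ran from 0.0064 to 0.0245. Col4a1 differed by a similar size, -0.46 ± 0.14, with a larger error (adjusted p = 0.113), and Col6a2 by -0.28 ± 0.093 (adjusted p = 0.153). All 4 ZT19 arrays lay below all 4 ZT07 arrays in 8 collagen genes, beside 3.81% of all genes, and above them in 0, beside 4.18%. The estimate was below 0 in 38 of the 44 genes (86.4%), beside 51.8% of all genes. It was below 0 in 9 of 11 fibrillar, 6 of 6 basement membrane and 23 of 27 other genes, with medians of -0.058, -0.11 and -0.079, beside -0.0030 over all genes. Leaving out 1 array at a time gave 4 to 6 called genes, with the call of Col5a3 lost in 5 of these fits and that of Col6a3 in 4.

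**Figure D3:**
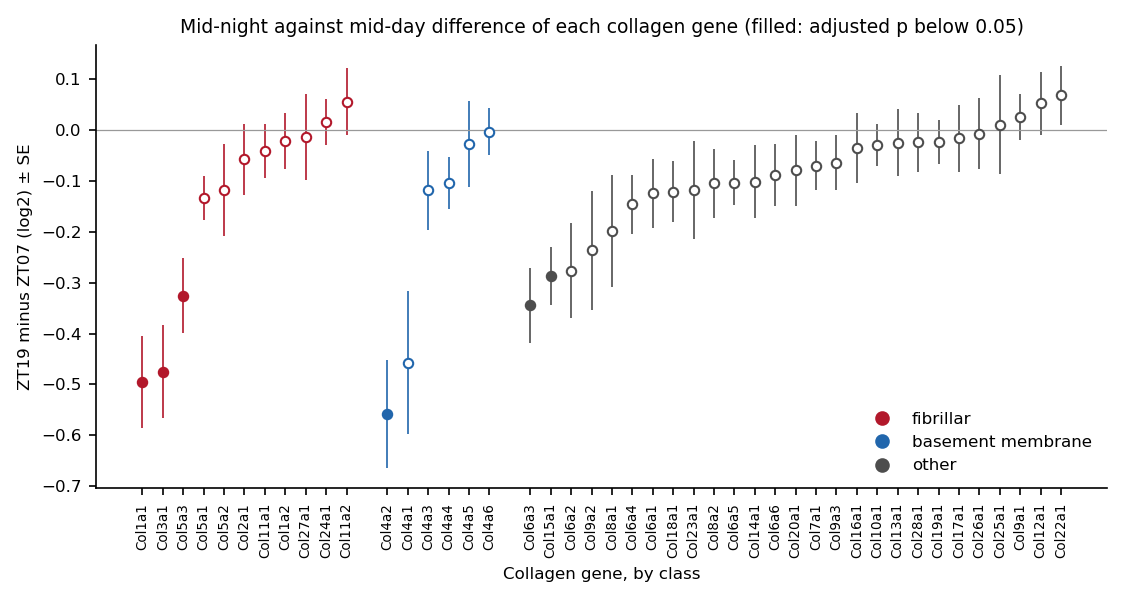
ZT19 minus ZT07 (vertical axis, log2, ± SE) for each of the 44 collagen genes (horizontal axis, by class and sorted within it), with filled points where the adjusted p was below 0.05. Of the 44 estimates 38 lie below 0, and the 6 called genes run from -0.56 for Col4a2 to -0.29 for Col15a1.

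The median over each class was taken on every array. For the fibrillar genes it was 0.048 ± 0.047 (SD, n = 4) at ZT07 and -0.06 ± 0.048 at ZT19. For the basement membrane genes it was 0.083 ± 0.073 and -0.05 ± 0.037, and for the others 0.032 ± 0.019 and -0.034 ± 0.019. Over all 44 genes the 4 ZT07 arrays lay from 0.022 to 0.062 and the 4 ZT19 arrays from -0.083 to -0.014. At ZT15 the 4 arrays spread from -0.063 to 0.079, the highest of all 24 arrays being ZT15 replicate 1. Medians over all genes stayed between -0.0034 and 0.0070 on all arrays.

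The other opposite times gave fewer calls. ZT15 minus ZT03 was called in 4 collagen genes, beside 3.06% of all genes, and all 4 were lower at ZT15, beside 1.7%. These were Col4a2 (-0.41 ± 0.11), Col5a3 (-0.32 ± 0.073), Col15a1 (-0.30 ± 0.057) and Col13a1 (-0.27 ± 0.066). This count rested on single arrays, with 2 genes left without ZT03 replicate 3 or ZT15 replicate 4, 1 without ZT03 replicate 4, and 6 without ZT15 replicate 1. ZT23 minus ZT11 was called in 0 collagen genes (limma), beside 2.72% of all genes (1.76% lower and 0.965% higher at ZT23), and 2 had an unadjusted p below 0.05, beside 13.6%. These 2 were Col6a1 (-0.17 ± 0.068) and Col8a2 (0.16 ± 0.068). All these comparisons share the same 24 arrays.

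Genes were compared in 12 pairs by the difference of their log2 values on each array. Most pairs were chains of a shared molecule or gene neighbours. The others were Col1a1 with Col3a1, Col15a1 with Col18a1, and a fibrillar with a basement membrane gene (Col1a1 or Col3a1 with Col4a1). A permutation test of a 24-h cosine in the difference (100000 shuffles of the time labels, one-sided on the F value, adjusted over the 12 pairs) called 2 pairs. The difference Col1a1 minus Col1a2 was 0.18 ± 0.18 (SD, n = 4) at ZT03, 0.26 ± 0.06 at ZT07, 0.057 ± 0.11 at ZT11, -0.12 ± 0.077 at ZT15, -0.22 ± 0.026 at ZT19 and -0.087 ± 0.13 at ZT23. All 4 ZT07 arrays, at 0.20 or higher, lay above all arrays of ZT15, ZT19 and ZT23. The amplitude of the difference was 0.24 ± 0.030 (SE) with a peak at ZT 6.25 (permutation test, adjusted p = 0.00024). Col1a1 alone had 0.22 with a peak at ZT 6.29, and Col1a2 only 0.015. The test of this pair therefore largely repeats the rhythm already called in Col1a1. With each Col1a2 probe set in turn, a check chosen after the data had been seen, the amplitude of the difference was 0.23 (permutation test, adjusted p = 0.00024) and 0.24 (permutation test, adjusted p = 0.00174). Those probe sets correlated at r = -0.086 and neither had a called rhythm. This check cannot tell whether the RNA of the 2 chains diverged. Over the 24 arrays Col1a1 and Col1a2 had r = 0.33 (permutation p = 0.113, adjusted 0.214) and rho = 0.29 (permutation p = 0.173, adjusted 0.296), and r = 0.26 without the 2 arrays farthest from the median. In every pair these 2 arrays were chosen by the values of the first gene only. After each time's mean was taken off, r was 0.60 (permutation p = 0.00229, adjusted 0.0137).

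Col15a1 minus Col18a1 was the other called pair. It was 0.12 ± 0.054 at ZT03, 0.067 ± 0.11 at ZT07 and 0.0048 ± 0.078 at ZT11, and -0.27 ± 0.096 at ZT15, -0.098 ± 0.10 at ZT19 and -0.051 ± 0.098 at ZT23. The mean was lowest at ZT15, and the amplitude was 0.16 ± 0.029 (permutation test, adjusted p = 0.00054). Here too the test largely repeats a called rhythm, since Col15a1 alone had an amplitude of 0.17 and Col18a1 only 0.011.

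For Col4a1 minus Col4a2 the amplitude was 0.049 ± 0.032 (permutation test, adjusted p = 0.488), and time means ran from -0.095 ± 0.073 at ZT11 to 0.054 ± 0.15 at ZT19. These neighbours correlated at r = 0.92 over the 24 arrays (rho = 0.86, permutation p = 1e-05 for each, the smallest the shuffles can give, adjusted 6e-05), at r = 0.90 without the 2 arrays farthest from the median of Col4a1, and at r = 0.86 after each time's mean was taken off (permutation p = 5e-05). The 2 arrays were ZT03 replicate 3 and ZT07 replicate 4. ZT15 replicate 1, high for both genes, was kept, and no pair's within-time r was computed without it. Col1a1 and Col3a1 correlated at r = 0.86 (rho = 0.85, permutation p = 1e-05 for each, adjusted 6e-05), at r = 0.84 without the 2 farthest arrays and at r = 0.61 within times (permutation p = 0.00517, adjusted 0.0207). Their difference had an amplitude of 0.022 ± 0.034 (permutation test, adjusted p = 0.813). Across classes, Col3a1 and Col4a1 correlated at r = 0.81 (rho = 0.72, r = 0.74 without the 2 farthest arrays), and within times at r = 0.61 (permutation p = 0.0201, adjusted 0.0603). Col1a1 and Col4a1 gave r = 0.71 (rho = 0.68, r = 0.68 without the 2 farthest arrays) and r = 0.41 within times (permutation p = 0.117, adjusted 0.233). Their differences had amplitudes of 0.061 ± 0.050 and 0.074 ± 0.060 (permutation test, adjusted p = 0.526 for each). A difference that misses the threshold does not show that the genes ran alike.

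**Figure D4:**
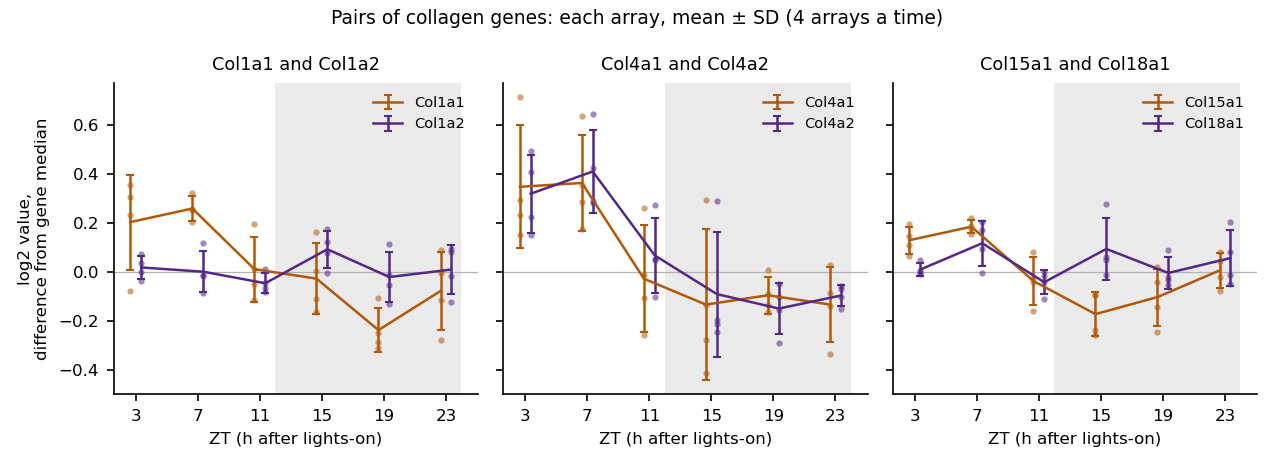
Log2 difference from the gene's own median (vertical axis) by time of day (horizontal axis, ZT in hours, dark phase shaded) for both genes of the pairs Col1a1 and Col1a2, Col4a1 and Col4a2, and Col15a1 and Col18a1, with points for the arrays and lines through the mean ± SD of 4 arrays. Col4a1 and Col4a2 run together (r = 0.92), while the means of Col1a1 and Col15a1 are above 0 at ZT03 and ZT07 and below it at ZT15 and ZT19, and Col1a2 and Col18a1 have no called rhythm.

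The amplitude of Col5a1 minus Col5a2 was 0.12 and that of Col8a1 minus Col8a2 was 0.18 (permutation test, adjusted p = 0.0718 for each). The first was called without ZT11 replicate 3 or ZT19 replicate 2 (adjusted p from 0.0214 to 0.190 over the fits without 1 array), and the second without ZT03 replicate 4, ZT19 replicate 1 or ZT23 replicate 3 (adjusted p from 0.0341 to 0.140). The 2 type VI pairs and the pairs Col4a3 with Col4a4 and Col4a5 with Col4a6 had amplitudes from 0.051 to 0.098 and adjusted p from 0.208 to 0.526 in the permutation test.

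The proteins that make, secrete and hold collagen were followed in 7 lists, whose genes were counted as called by the 24-h test over all genes. Beside each count stands the share over all genes, 7.61% called, 3.83% with a peak in the light and 3.78% with a peak in the dark. Of 17 measured genes of chain folding and modification, 3 were called, 2 of them with a peak in the dark. P4ha1, the catalytic subunit of the prolyl hydroxylase that stabilises the collagen helix, peaked in the dark (peak ZT 19.2, 1.48-fold, adjusted p = 9.72e-05). The called collagens peaked between ZT 3.00 and ZT 6.76. P4ha1 was -0.32 ± 0.16 (SD, n = 4) at ZT07 and 0.19 ± 0.14 at ZT19, and the arrays of those times did not overlap. P4ha2, its isoenzyme, was called as well (peak ZT 16.7, 1.21-fold, adjusted p = 0.00323), as was Plod2, a lysyl hydroxylase (peak ZT 10.2, 1.25-fold, adjusted p = 0.0103). The chaperone Serpinh1, which binds the collagen helix, was not called (peak ZT 18.5, 1.13-fold, adjusted p = 0.36). Of 12 genes of procollagen secretion 2 were called (4 without ZT11 replicate 1 or ZT15 replicate 4, under array weights or after quantile normalization), Sec24d of the vesicle coat (peak ZT 10.2, 1.18-fold, adjusted p = 0.00383) and the membrane-bound transcription factor Creb3l1 (peak ZT 0.02, 1.26-fold, adjusted p = 0.0116). Of 13 genes of propeptide removal and cross-linking 3 were called (1 without ZT03 replicate 1, ZT11 replicate 2 or 3, or ZT23 replicate 1, 2 or 3), Loxl1, a lysyl oxidase (peak ZT 1.46, 1.24-fold, adjusted p = 0.0125), Pcolce2, an enhancer of propeptide removal (peak ZT 12.2, 1.21-fold, adjusted p = 0.0284), and Tll1, a propeptide protease (peak ZT 12.7, 1.16-fold, adjusted p = 0.0434).

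Of 18 fibril-associated proteins 5 were called, all 5 with a peak in the dark, beside 7.61% of all genes called and 3.78% called with a peak in the dark. Bgn and Dcn, small proteoglycans on collagen fibrils, peaked about 12 h after Col1a1 and Col3a1 (peak ZT 18.3, 1.39-fold, adjusted p = 0.00269 for Bgn and peak ZT 18.7, 1.24-fold, adjusted p = 0.0016 for Dcn). Bgn was -0.37 ± 0.18 at ZT07 and 0.071 ± 0.12 at ZT19, and Dcn -0.23 ± 0.15 and 0.13 ± 0.032, with no overlap of the arrays for either. Thbs2 (peak ZT 12.4, 1.46-fold, adjusted p = 5.82e-05) and Tnxb (peak ZT 13, 1.28-fold, adjusted p = 5.72e-04), matrix proteins that bear on fibril spacing, peaked near lights-off, and Aspn, another small proteoglycan, at ZT 15.6. The peak time of Thbs2 had an SE of 0.50 h, so its side of lights-off was not settled. The mean of Thbs2 was 0.40 ± 0.19 at ZT11 and 0.30 ± 0.029 at ZT15. Night minus day was -0.070 for Thbs2 and 0.0046 for Tnxb. Sparc, Fn1, Postn and the other members of this list were not called.

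Of 19 partners in the basement membrane 5 were called, 4 of them with a peak in the light (3 were called without ZT11 replicate 4). Over all genes 7.61% were called, 3.83% with a peak in the light and 3.78% with a peak in the dark. Pxdn, the peroxidase that cross-links type IV collagen, peaked with Col4a1 and Col4a2 (peak ZT 5.45, 1.39-fold, adjusted p = 0.00229). Its means were 0.33 ± 0.11 at ZT03, 0.24 ± 0.12 at ZT07, -0.013 ± 0.11 at ZT11, -0.14 ± 0.20 at ZT15, -0.11 ± 0.13 at ZT19 and -0.15 ± 0.12 at ZT23. Hspg2, which codes for perlecan, was later (peak ZT 8.82, 1.22-fold, adjusted p = 0.0244), and the laminin chains Lama2 and Lamc1 peaked at ZT 10.7 and ZT 11.2. Nid1, the linker between laminin and type IV collagen, peaked in the dark (peak ZT 15.8, 1.27-fold, adjusted p = 4.32e-05), with -0.12 ± 0.09 at ZT07 and 0.25 ± 0.053 at ZT15. Of 11 genes listed under collagen receptors and uptake 3 were called. These were Cd93 (peak ZT 0.95), Mrc2, an uptake receptor for collagen (peak ZT 14.8, 1.18-fold, adjusted p = 0.00559), and the platelet receptor Gp6 (peak ZT 18.4). Whether Cd93, the only one of these with a peak in the light, binds collagen was not tested. Of 20 genes of the TGF-beta pathway, which drives collagen transcription in scars, 2 were called (4 when the lower 50% of genes by SD were left out), Tgfbr3 (peak ZT 12.7) and Ltbp1 (peak ZT 10.4), and neither Tgfb1 (peak ZT 7.18, 1.08-fold, adjusted p = 0.594) nor Ccn2 (peak ZT 4.78, 1.14-fold, adjusted p = 0.371) was. The 2 of 20 are 10%, near the 7.61% of all genes called.

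**Figure D5:**
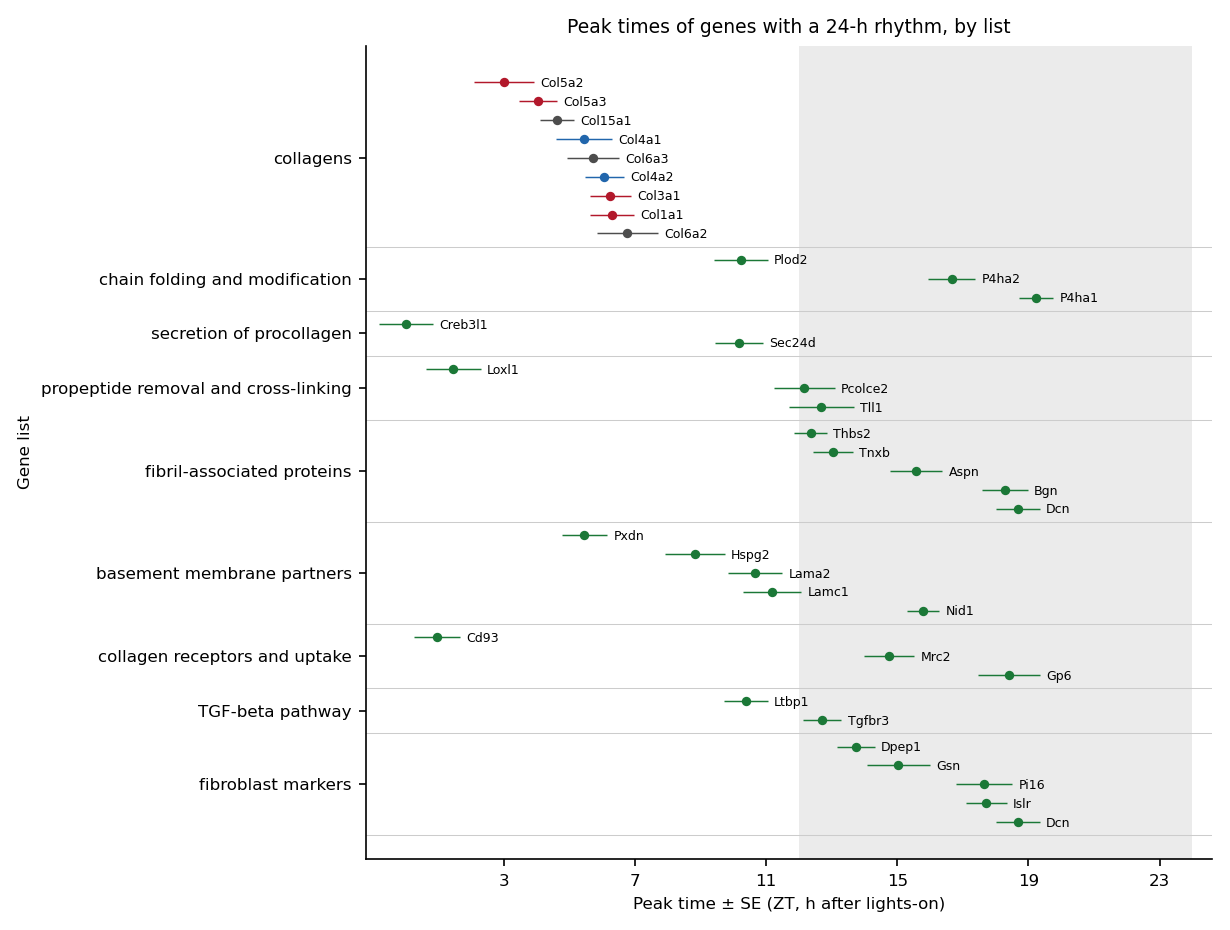
Peak time ± SE (horizontal axis, ZT in hours, dark phase shaded) of every gene with a called 24-h rhythm among the collagens, the 7 lists of collagen partners and the fibroblast markers (rows). The 9 collagens lie between ZT 3.00 and ZT 6.76, Pxdn lies among them at ZT 5.45, and the 5 fibril-associated genes and 5 fibroblast markers lie in the dark. Of these, Thbs2 lies at ZT 12.4 with an SE of 0.50 h that reaches across lights-off.

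Markers of the cells that make collagen were set beside these values. Over all genes 7.61% had a called rhythm, 3.83% with a peak in the light and 3.78% with a peak in the dark. Of 12 fibroblast markers 5 were called, Dpep1, Islr, Dcn, Pi16 and Gsn, all with a peak in the dark (3 of 12 without the 3 arrays of largest SD). The median of the list was -0.08 ± 0.081 (SD, n = 4) at ZT07 and 0.092 ± 0.022 at ZT19, and its arrays ran from -0.20 to -0.034 at ZT07 and from 0.059 to 0.10 at ZT19. At ZT19, where Col1a1 and Col3a1 were below their own ZT07 values, this list stood above its own. It was not high throughout the dark, with 0.11 ± 0.078 at ZT15 but -0.073 ± 0.053 at ZT23. Its ZT23 arrays ran from -0.15 to -0.029 and overlapped those of ZT07. At ZT03 and ZT11 the list stood at -0.011 ± 0.040 and -0.0066 ± 0.057. Of 12 endothelial markers 4 were called, Kdr at ZT 2.23, Fabp4 at ZT 11.7, Flt1 at ZT 13.8 and Eng at ZT 16.1, and the list's median lay from -0.093 to 0.023 at ZT07 and from -0.026 to 0.04 at ZT19. On ZT15 replicate 1 the endothelial median was 0.30, the highest of the 24 arrays. Of 10 markers of heart muscle cells 2 were called, Ttn at ZT 5.72 and Ryr2 at ZT 5.53, both about 1.1-fold, and the list's median lay from 0.021 to 0.068 at ZT07 and from -0.021 to 0.0052 at ZT19. Of 8 activated fibroblast, 10 smooth muscle and pericyte, 8 atrial, 7 mesothelial, 5 Schwann cell and 7 chondrocyte markers 0 were called in limma. At an unadjusted p below 0.05 stood 3, 5, 3, 0, 0 and 1 of them, beside 19.5% of all genes. Without ZT15 replicate 1, 2 activated fibroblast markers were called and 1 smooth muscle and pericyte marker. Array weights, or leaving out the 3 arrays of largest SD, also gave 2 activated fibroblast calls. Other single arrays left out gave at most 1 call in any of these lists (activated fibroblast without ZT19 replicate 1 or 2 or ZT23 replicate 4, smooth muscle and pericyte without ZT03 replicate 3 or ZT23 replicate 1, atrial without ZT03 replicate 4, ZT19 replicate 4 or ZT23 replicate 1, and chondrocyte without ZT19 replicate 3).

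Most markers of macrophages and platelets peaked in the dark. The share over all genes was 7.61% called and 3.78% called with a peak in the dark. Of 10 macrophage markers 8 were called, 7 with a peak in the dark, and the list's median lay from -0.27 to -0.066 at ZT07 and from 0.011 to 0.18 at ZT19. Of 7 platelet markers 4 were called (2 without ZT19 replicate 1), all with a peak in the dark, and the list's median lay from -0.20 to -0.051 at ZT07, from -0.019 to 0.81 at ZT15 and from 0.048 to 0.44 at ZT19, with the highest value on ZT15 replicate 1. Gp6 stands in both the receptor and the platelet list, and Dcn in both the fibril and the fibroblast list. The part of these cells in the collagen values was not tested.

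The genes most like 2 sets of collagens, 1 of which holds the uncalled Col1a2, were sought by Pearson's r over the 24 arrays, as a description. The mean of Col1a1, Col1a2 and Col3a1 was most like Prpf18, a splicing factor (r = 0.85), Fbxl20 (r = 0.79), Kremen1 (r = 0.78), Yeats2 (r = 0.78) and the muscle LIM protein gene Csrp3 (r = 0.78). Next came Wipi1, Gar1, Mbtps1, Hspg2 and Mdp1 with r from 0.76 to 0.77. The mean of Col4a1 and Col4a2 was most like Pxdn (r = 0.91). Rftn1 (r = 0.84), Hnrnpdl (r = 0.82), Fbxl20 (r = 0.81) and Myom2, a protein of the M band of the sarcomere (r = 0.81), followed. Golga4, Mtss1, Hnrnpm, Plxnd1 and Myo18b had r = 0.81. After each time's mean was taken off, r for these 10 genes ran from 0.48 (Fbxl20) to 0.77 (Pxdn). For the 10 genes most like the mean of Col1a1, Col1a2 and Col3a1 it ran from 0.38 (Kremen1) to 0.85 (Prpf18). The arrays that gave the ranking also gave these values, so they are no separate check. All these correlations come from the same 24 arrays, and no function or control is read from the likeness.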

How the data were processed

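RNA of 24 hearts was measured on Affymetrix arrays after TRIzol extraction and labelling as biotin cRNA, per the labels' protocols. The deposited values were read as log2 values, and base 2 is an assumption. The median of every probe set over the 24 arrays is 0, so they are differences from it. How the arrays were summarised and normalized is not given in the sources used here. Array medians ran from -0.00223 to 0.00731. The number of arrays limits the precision, and signal over background is not known.

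Of 34351 probe sets, 23521 named 1 gene and gave 22180 genes by the mean over probe sets, 1814 named several and were left out, and 9016 named none. Symbols were checked against RefSeq (GRCm38.p6, 23328 probe sets matched, 0 symbols changed). All 24 arrays entered moderated tests (limma 3.58.1, R 4.3.3) with Benjamini-Hochberg adjustment over all genes at 0.05, and were tested on simulated data. Chain pairs were tested in Python 3.11.15 with 100000 shuffles. Counts of lists are given with no test of the list.

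The members and lists were chosen with earlier results of these data known. Values are given in full for members called in the test of a 24-h rhythm or of the 6 times and for Col1a1, Col1a2, Col3a1, Col4a1 and Col4a2. The next 5 members by p, the called genes of each list (at most 6) and the 10 genes most like each reference follow. Serpinh1, Sparc, Fn1, Postn, Tgfb1, Ccn2, Col8a1 and Col18a1 were added to these where they answer a question on a pathway or a pair. Features of the proteins were not analysed here. Alternatives were the replicate number as a block, arrays left out, array weights, array medians taken off, quantile normalization, other choices of probe sets, filters on SD and gene type, a variance trend and 12-h terms.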

Additional observations from a re-analysis of the deposited data

Results flagged for a closer look

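In each of the 6 times, the 15 collagen genes chosen by the rule for named genes (Col8a1 and Col18a1, added to them, were left out) were examined for an array far from the other 3, which gave 90 groups of 4 arrays. Of these, 4 held an array whose gap to its neighbour was too large a part of the group's range by Dixon's critical value, and chance alone gives about 1 in 20 groups. Col4a2 stood at 0.29 on ZT15 replicate 1, above the other ZT15 arrays. Col5a3 stood at -0.20 on ZT15 replicate 3, below the others. Col8a2 was -0.27 on ZT11 replicate 2 and 0.21 on ZT23 replicate 2, apart from the other 3 arrays of each time.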

How the results depend on the processing

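No called rhythm, called pair, called night or ZT19 difference or class median of ZT19 minus ZT07 changed direction. Counts carry no direction. For genes and pairs not called in the main fit it was compared only where another fit called them. The 9 collagen genes with a rhythm were the same under every alternative on all 24 arrays, 10 were called without the 3 arrays of largest SD, and 8 to 10 without 1 array. Those counts were 5 to 8 without 1 array for any difference among times (main 6), 7 to 8 for night against day (8), and 4 to 6 for ZT19 against ZT07 (6). ZT15 minus ZT03 (4) was the least stable, with 7 under array weights, 7 when the lower 50% of genes by SD were left out, and 1 to 6 without 1 array, and the cause was not tested. ZT23 minus ZT11 gave 0 throughout. By class, leaving out 1 array gave 3 to 5 fibrillar, 2 basement membrane and 2 to 4 other genes. The amplitude of the pair difference ran from 0.098 to 0.139 for Col5a1 and Col5a2 and from 0.158 to 0.198 for Col8a1 and Col8a2 without 1 array. Col5a1 was called without ZT19 replicate 3 (limma, adjusted p = 0.037). Chain pairs were not run under array weights or 12-h terms, nor under the filters or the variance trend, which do not apply to them.

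Replicate numbers did not pair the arrays (mean correlation of same-numbered arrays -0.0141, beside 0.0051 for others, and 6 of 24 arrays were closest to their own number). With the replicate block 9 collagen genes had a rhythm, 5 differed among times, 8 between night and day, 6 between ZT19 and ZT07, 3 between ZT15 and ZT03 and 0 between ZT23 and ZT11. What depth limits is not known, since the values hold no signal over background.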
